A study of Mus musculus with 6 samples.

Results

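The genes described here make, sense and remove prostaglandins, and were compared between the Col6a1+ and Col6a1- fibroblasts of mouse colitis-associated colon adenomas. They are 10 genes chosen by name among the 49548 genes measured, namely Ptgs1, Ptgs2, Ptges, Ptgis, Tbxas1, Hpgd and the 4 prostaglandin E2 receptor genes Ptger1 to Ptger4. All 10 were found by their symbol and all had counts in at least 1 library. Tumors were induced with azoxymethane (AOM), a carcinogen, and dextran sodium sulfate (DSS), which injures the colonic epithelium, in young adult C57/BL6 mice of the genotype Col6a1-cre, Rosa26-mTmG. The 6 libraries share this genotype and treatment, and each came from pooled tumors of several mice. Both groups were sorted after removal of cells positive for CD45, EpCAM, CD31 or Ter119, markers of immune, epithelial, endothelial and red cells. Col6a1+ cancer-associated fibroblasts (CAFs) were the GFP+ cells, and Col6a1- CAFs the Tomato+ cells, with 3 libraries each. The switch from Tomato to GFP is permanent, so GFP marks every cell in which Cre, driven by Col6a1 regulatory sequence, acted at any earlier time, and Tomato marks all remaining cells that passed the sort. No untreated colon was analysed here.

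Prostaglandins are short-lived lipids that act near the cell that makes them. Phospholipases free arachidonic acid from membranes, the cyclooxygenases Ptgs1 (COX-1) and Ptgs2 (COX-2) turn it into prostaglandin H2, and terminal synthases convert that into prostaglandin E2, prostacyclin, prostaglandin D2, prostaglandin F2α or thromboxane. Each product binds its own G protein-coupled receptors, and prostaglandin E2 is best known in the colon for its part in mucosal repair and in adenoma growth. COX-1 is made at a steady level in many tissues, whereas COX-2 is induced by growth factors and inflammation, and mesenchymal cells are a known source of it in the gut.

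Values are the study's normalized counts, that is 3′ end reads per gene divided by a size factor for each library, and they summed to between 3039152 and 3425249 per library. Replicate 1 of the Col6a1+ CAFs stood apart, with 14530 genes detected against 18770 to 20511 in the other 5 libraries, and several low values below are 0 in that library alone. Col6a1, the gene behind the sort, had 861, 1287 and 1941 normalized counts in Col6a1+ CAFs and 182, 321 and 102 in Col6a1- CAFs, so the labels matched the levels. Markers of other cells differed too. The summed level of 9 mural cell markers (Rgs5, Cspg4, Notch3 and others) was 51384 to 104067 in Col6a1+ and 1486 to 3924 in Col6a1- CAFs, and all 9 passed the test described below as higher in the Col6a1+ CAFs. The sum of 8 fibroblast markers was 42619 to 46297 against 8733 to 15884, and all 8 had a positive log2 fold change, of which 5 passed the test. The sum of 10 epithelial markers was 5722 to 6365 against 19976 to 33607 although EpCAM+ cells had been excluded, and all 10 had a negative log2 fold change, of which 7, Epcam and Cdh1 among them, passed. Of 5 mesothelial markers, which summed to 53 to 136 against 498 to 667, Krt7, a keratin of other epithelia too, passed as lower and Lrrn4 was at 0 in all 6 libraries. Over the 9 marker lists used here 26 genes passed. With the replicate number as a pairing term, explained below, none of the 26 did (limma adjusted p of 0.0612 to 0.153), and all 26 did when that fit was limited to genes averaging 10 or more normalized counts (0.000524 to 0.0224). In bulk libraries such as these, fewer cells of a type and less RNA per cell cannot be told apart.

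Ptgs2 was the 1 gene of the 10 that passed the test. It was higher in Col6a1+ CAFs, 3.93-fold on the scale of the log2 of the normalized count plus 1. Ptges, the inducible synthase that turns prostaglandin H2 into prostaglandin E2, was 2.80-fold higher and lay at the threshold. Ptgs1 was 1.98-fold higher with overlapping libraries, and no E2 receptor passed the test. The mural and fibroblast marker sums given above were also larger, and the epithelial sum smaller, in every Col6a1+ library. The part of these markers' cells in the differences of Ptgs2, Ptges and Ptgs1 was not tested. Over the 10 genes, 6 had a positive and 4 a negative log2 fold change, and the median log2 fold change was 0.38. It was -0.27 over all 26402 genes tested and -0.15 over the 13515 genes that averaged at least 10 normalized counts across the 6 libraries, called the better-covered genes here. Throughout, log2 fold changes are Col6a1+ minus Col6a1- CAFs, and the test is limma's moderated test with Benjamini-Hochberg adjustment over the 26402 genes, called at an adjusted p under 0.05. Of all genes tested, 2.66% were called higher and 1.96% lower in Col6a1+ CAFs. Genes with more counts were called more often, at 8.82% in either direction among the better-covered genes, to which 8 of the 10 belong. The plot of normalized counts by library shows all 10.

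**Figure D1:**
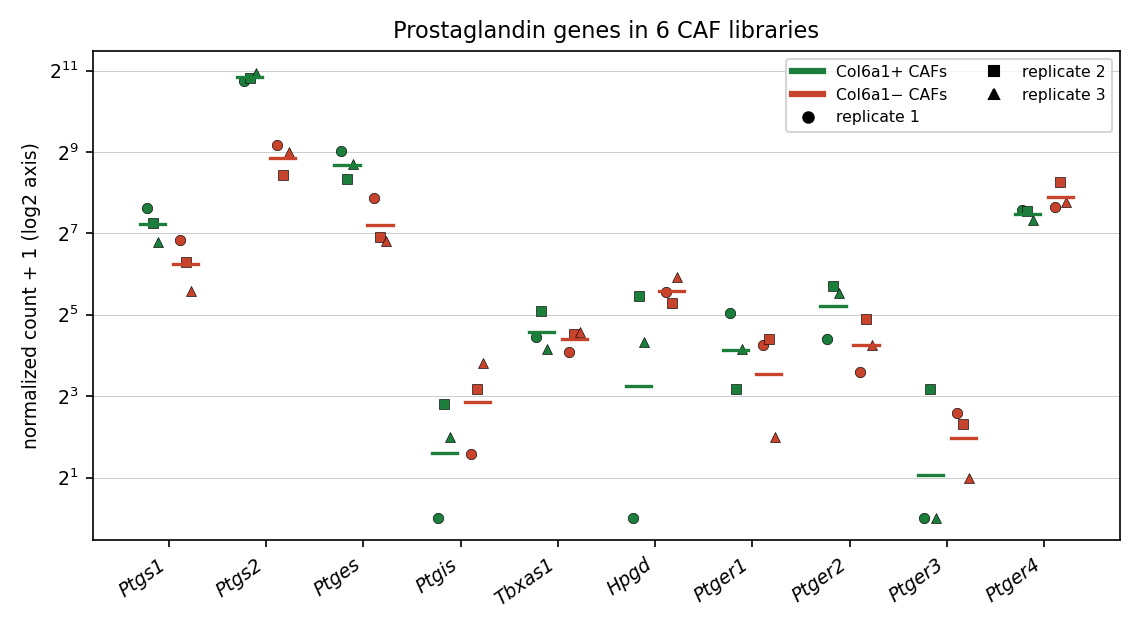
Normalized count plus 1 of the 10 prostaglandin genes (log2 axis) in each of the 3 Col6a1+ (green) and 3 Col6a1- (red) CAF libraries. Points are libraries, with a shape for each replicate number, and short lines are group means on the log2 scale. The groups do not overlap for Ptgs2 and Ptges, which are higher in Col6a1+ CAFs, or for Ptger4, which is lower. Ptgis, Hpgd and Ptger3 reach 0 in 1 or 2 Col6a1+ libraries.

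The promoters of the genes on which the comparison turns are shown first, because the COX genes are regulated so differently and because Ptgs2, Ptges and the prostacyclin receptor gene Ptgir, described further on, are the pathway genes with the largest positive log2 fold changes. Each is a 300-base window from RefSeq on GRCm38.p6 (mm10), from 250 bases before to 50 bases after the annotated start, written 5′ to 3′ on the strand of the gene. Windows of 12 of the 14 genes looked up were matched, and Ptgis and Ptger1 had no entry. Capitals mark every match, on either strand, to the searched motifs, which were the cyclic AMP response element (CRE, TGACGTCA), its half-site (TGACG), the E-box (CACGTG), AP-1 (TGANTCA), NF-kB (GGGA and TTTCC with 1 base between), C/EBP (TTNCGCAA), RBPJ (TGGGAA), the TATA box (TATAAA) and the CArG box. The Ptgs2 window is chr1:150099781-150100080 (plus strand), the Ptgs1 window chr2:36230176-36230475 (plus), the Ptges window chr2:30903248-30903547 (minus) and the Ptgir window chr7:16906240-16906539 (plus). The Ptges window lies inside the deposited span of that gene and not at its 5′ end, which is at 30929863.
Ptgs2: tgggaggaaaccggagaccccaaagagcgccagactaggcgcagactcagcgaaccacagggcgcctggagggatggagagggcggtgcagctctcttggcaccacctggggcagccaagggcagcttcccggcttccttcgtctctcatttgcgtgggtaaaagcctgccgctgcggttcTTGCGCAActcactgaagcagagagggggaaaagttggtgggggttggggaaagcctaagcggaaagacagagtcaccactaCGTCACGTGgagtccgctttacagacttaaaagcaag
Ptgs1: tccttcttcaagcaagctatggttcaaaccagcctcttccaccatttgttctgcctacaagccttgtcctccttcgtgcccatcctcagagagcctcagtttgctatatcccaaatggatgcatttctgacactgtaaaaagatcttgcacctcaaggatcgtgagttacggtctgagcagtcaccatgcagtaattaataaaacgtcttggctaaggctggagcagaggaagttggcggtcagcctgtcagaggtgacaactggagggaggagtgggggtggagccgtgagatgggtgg
Ptges: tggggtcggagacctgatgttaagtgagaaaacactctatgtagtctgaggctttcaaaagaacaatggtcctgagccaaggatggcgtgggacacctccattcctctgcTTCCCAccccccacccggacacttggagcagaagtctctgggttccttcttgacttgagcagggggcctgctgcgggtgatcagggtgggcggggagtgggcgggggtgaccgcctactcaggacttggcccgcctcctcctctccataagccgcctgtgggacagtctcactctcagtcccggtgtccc
Ptgir: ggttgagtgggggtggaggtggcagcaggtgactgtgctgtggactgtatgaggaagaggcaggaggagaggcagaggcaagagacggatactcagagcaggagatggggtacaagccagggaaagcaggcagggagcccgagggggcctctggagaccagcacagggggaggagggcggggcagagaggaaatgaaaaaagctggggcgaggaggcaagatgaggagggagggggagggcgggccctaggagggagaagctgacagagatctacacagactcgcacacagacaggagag

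The Ptgs2 window holds a C/EBP match, TTGCGCAA, that begins at position -69 from the annotated start, and a CRE half-site, read as CGTCA on the printed strand, that begins at position 14. The half-site overlaps an E-box, CACGTG, that begins at position 17. Of the 32851 RefSeq mouse promoter windows of this length, 0.798% hold the C/EBP motif, 20.8% the CRE half-site and 7.15% the E-box. The Ptgs1 window holds none of the 9 motifs. The Ptges window holds 1 RBPJ match, TTCCCA on the printed strand, which begins at position -140 and belongs to a motif found in 25.6% of windows. The Ptgir window holds none. Neither the full CRE (1.79% of windows), AP-1 (7.81%), NF-kB (0.411%), the TATA box (13.6%) nor the CArG box (1.63%) was found in these 4 windows. These matches describe the letters of short windows and no binding was measured.

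Ptgs2 (chromosome 1, 150100031 to 150108227, plus strand) had 1716, 1805 and 1964 normalized counts in the 3 Col6a1+ libraries and 576, 342 and 507 in the 3 Col6a1- libraries. Every Col6a1+ library was above every Col6a1- library, and the group means were 1830 ± 126 and 475 ± 120 (SD, n = 3 each). This is a log2 fold change of 1.97 (SE 0.28, 95% confidence interval 1.34 to 2.60, limma adjusted p = 0.00414). A fit that pairs the libraries by replicate number (the replicate block) gave a limma adjusted p of 0.0612, the smallest it gave any gene, and 0.00314 when fitted to the better-covered genes. The call was also lost, at limma adjusted p of 0.0581 to 0.149, without any 1 of the 3 Col6a1+ libraries or of replicates 1 and 3 of the Col6a1- CAFs, and was kept at 0.0482 without Col6a1- replicate 2. In those fits the log2 fold change stayed between 1.75 and 2.13.

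The other cyclooxygenase gene, Ptgs1 (chromosome 2, 36230426 to 36252272, plus strand), had 197, 152 and 109 normalized counts in Col6a1+ CAFs and 113, 78 and 47 in Col6a1- CAFs. The lowest Col6a1+ library lay just under the highest Col6a1- library. Its log2 fold change was 0.98 (SE 0.43, 95% confidence interval 0.02 to 1.94, limma adjusted p = 0.300). The interval is not adjusted for the number of genes and goes with an unadjusted limma p of 0.0462. It runs from close to no difference up to 1.94 on the log2 scale. Within each library, the log2 ratio of Ptgs2 to Ptgs1 was 3.12, 3.56 and 4.16 in Col6a1+ CAFs and 2.34, 2.12 and 3.40 in Col6a1- CAFs. The ratio was on average 0.99 larger in Col6a1+ CAFs but the groups overlapped (two-sided exact permutation p = 0.2, where 3 against 3 libraries cannot go below 0.1). Paired by replicate number, the ratio was larger in Col6a1+ CAFs in 3 of 3 pairs, by 0.78, 1.44 and 0.76 (two-sided exact permutation p = 0.25, the smallest that 3 pairs allow).

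Ptges (chromosome 2, 30889471 to 30929863, minus strand) had 518, 322 and 419 normalized counts in Col6a1+ CAFs and 234, 120 and 112 in Col6a1- CAFs. The groups did not overlap. With a log2 fold change of 1.48 (SE 0.37, 95% confidence interval 0.66 to 2.31, limma adjusted p = 0.0501), it just missed the threshold. Over the better-covered genes the limma adjusted p was 0.0367, and 0.0136 with the replicate block as well, whereas the block over all genes gave 0.0915. Left out in turn, the libraries gave log2 fold changes of 1.29 to 1.82 and no call. The log2 ratio of Ptgs2 to Ptges within a library averaged 2.15 ± 0.38 in Col6a1+ and 1.66 ± 0.46 in Col6a1- CAFs (SD, n = 3 each, two-sided exact permutation p = 0.2), and was larger in Col6a1+ CAFs by 0.43, 0.98 and 0.06 in the 3 pairs. Ptgs2 and Ptges act in sequence in the making of prostaglandin E2.

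The terminal synthases of the other branches among the 10 had few counts. Ptgis, prostacyclin synthase, had 0, 6 and 3 normalized counts in Col6a1+ CAFs and 2, 8 and 13 in Col6a1- CAFs (limma log2 fold change -1.25, adjusted p = 0.624). Tbxas1, thromboxane synthase, had 21, 33 and 17 against 16, 22 and 23 (limma log2 fold change 0.17, 95% confidence interval -1.24 to 1.59, adjusted p = 0.898). For both, the groups overlapped and the depth leaves wide intervals. Tbxas1 and the COX genes are also used by macrophages, whose 10 markers summed to 122 to 283 normalized counts in Col6a1+ and 209 to 310 in Col6a1- CAFs, with none of the 10 past the limma test. Cd14 had the most counts of these markers in each library, and the other 9 markers summed to 45, 45 and 58 in Col6a1+ and 89, 134 and 177 in Col6a1- CAFs. Tyrobp, Lyz2, Cd68 and Ptprc were lower in Col6a1+ CAFs without overlap, 3 of them (Tyrobp, Cd68 and Ptprc) at an unadjusted p under 0.05, and Adgre1 had 0 or 1 count in every library. Endothelial cells make prostacyclin, and their 8 markers summed to 216 to 438 in Col6a1+ and 204 to 477 in Col6a1- CAFs, with 1 (Tie1) called higher. The other 7 had a negative log2 fold change and were not called. Among them, Cdh5 was lower in Col6a1+ CAFs without overlap, at 10, 4 and 9 against 39, 24 and 24 (limma adjusted p = 0.252). Tie1 had 220, 56 and 152 against 1, 7 and 21.

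Hpgd encodes 15-hydroxyprostaglandin dehydrogenase, which begins the breakdown of prostaglandins and opposes COX-2 in the colon. It had 0, 43 and 19 normalized counts in Col6a1+ CAFs and 46, 38 and 60 in Col6a1- CAFs. The Col6a1+ library at 0 is the one with the fewest genes detected, and Col6a1+ replicate 2 lay inside the Col6a1- range. Over all 6 libraries the log2 fold change was -2.33 (95% confidence interval -5.00 to 0.34, limma adjusted p = 0.388), and without Col6a1+ replicate 1 it was -0.70 (limma adjusted p = 0.484).

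Among the receptors of prostaglandin E2, Ptger2 and Ptger4 signal through cyclic AMP, Ptger1 through calcium and Ptger3 mainly by lowering cyclic AMP. None of the 4 passed the limma test or had an unadjusted p under 0.05. Ptger4 (chromosome 15, 5206661 to 5244187, minus strand) had 188, 187 and 161 normalized counts in Col6a1+ CAFs and 199, 305 and 219 in Col6a1- CAFs. All 3 Col6a1+ libraries lay below all 3 Col6a1- libraries, but the gap was narrow, with a log2 fold change of -0.41 (95% confidence interval -1.11 to 0.29, limma adjusted p = 0.603). Ptger2 had 20, 51 and 45 against 11, 29 and 18, with overlap between the groups (log2 fold change 0.96, 95% confidence interval -0.51 to 2.42, limma adjusted p = 0.540).

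Ptger3 was near the lowest level that can be read, at 0, 8 and 0 in Col6a1+ and 5, 4 and 1 in Col6a1- CAFs (limma log2 fold change -0.91, adjusted p = 0.642). Ptger1 had 32, 8 and 17 against 18, 20 and 3 (limma log2 fold change 0.58, adjusted p = 0.736). Its value is uncertain, because the sources used here do not say whether reads were counted by strand. Ptger4 shares 82 exon bases with Ttc33 on the opposite strand, and Ttc33 had 62 to 224 against 192 to 206. A further 1015 of its bases overlap the pseudogene Gm15937, which had 0 to 8 against 0 to 11.

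Read against all genes, 2 of the 8 better-covered genes were higher without overlap (Ptgs2 and Ptges), where 14.2% of all 13515 better-covered genes were. In the other direction it was 1 of 8 (Ptger4), where 17.6% of these genes were lower without overlap.

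A further 29 genes of the pathway, chosen by function, place these 10 in their setting, and 27 had counts to test. Of these 27, 1 was called higher and 3 lower in Col6a1+ CAFs, where 2.66% and 1.96% of all genes were. Their log2 fold changes had a median of -0.39, against -0.27 over all genes. The plot of log2 fold changes shows the 10 genes and these 27 by role.

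**Figure D2:**
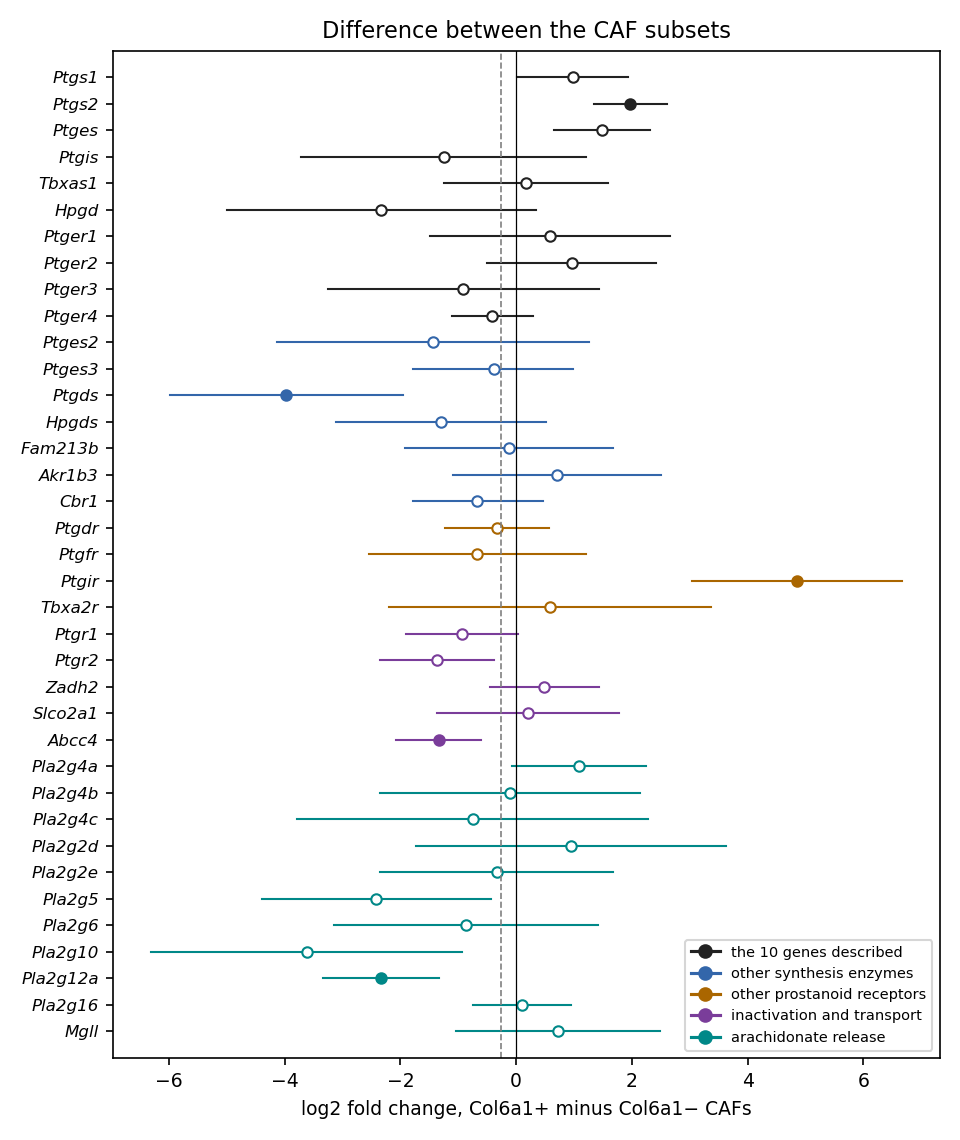
Log2 fold change (Col6a1+ minus Col6a1- CAFs, x axis) with its 95% confidence interval for the 10 genes and 27 further genes of the pathway, coloured by role. Filled points passed an adjusted p of 0.05, the solid line marks no difference and the dashed line the median of all genes tested (-0.27). Ptgir at 4.86 and Ptgs2 at 1.97 are the filled points to the right, and Ptgds, Pla2g12a and Abcc4 those to the left.

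The receptor that changed was Ptgir, which binds prostacyclin and is known from vascular smooth muscle and platelets. It had 410, 103 and 190 normalized counts in Col6a1+ CAFs and 13, 11 and 1 in Col6a1- CAFs, with no overlap. This is a log2 fold change of 4.86 (SE 0.82, 95% confidence interval 3.04 to 6.67, limma adjusted p = 0.00892), and the limma adjusted p was 0.0797 with the replicate block and 0.00533 with the block over the better-covered genes. The call was lost when any 1 library was left out, at limma adjusted p of 0.109 to 0.211 and log2 fold changes of 3.96 to 5.36. Set against Ptger4 in the same library, the log2 ratio was 0.17 ± 0.99 in Col6a1+ and -5.10 ± 1.52 in Col6a1- CAFs (SD, n = 3 each, two-sided exact permutation p = 0.1, the smallest possible). The 3 within-library ratios given here were chosen after the values were seen, and each had an adjusted p of 0.2 over the 3. The mural markers moved the same way as Ptgir and their part in its difference was not tested. The 5 platelet markers summed to 45 to 204 in Col6a1+ and 35 to 2246 in Col6a1- CAFs, where Pf4 alone gave 2222 in 1 library, and none passed the limma test. Of these markers, Gp9 was at 0 in all 6 libraries, and Gp1bb had 68, 29 and 60 against 26, 2 and 4, higher in Col6a1+ CAFs without overlap (limma log2 fold change 2.76, adjusted p = 0.133). Ppbp, Pf4 and Itga2b went the other way with overlap, at log2 fold changes of -2.37, -1.56 and -0.87. The part of the platelet markers in the difference of Ptgir was not tested. The other receptors, Ptgdr, Ptgfr and Tbxa2r, did not pass the test, and Ptgdr2 was at 0 throughout.

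The remaining synthases make prostaglandin D2 and F2α, alternative forms of prostaglandin E2 synthase or related conversions, and of the 7 tested 1 was called. Ptgds, lipocalin-type prostaglandin D2 synthase, was at 0 in all 3 Col6a1+ libraries and had 24, 8 and 16 normalized counts in Col6a1- CAFs. The log2 fold change of Ptgds was -3.97 (confidence interval -5.98 to -1.96, limma adjusted p = 0.0344). The limma adjusted p was 0.102 with the replicate block and 0.0598 to 0.178 without any 1 library. A level of 0 allows up to 3 counts per library. Against the Col6a1- mean of 16 counts, that limit gives a 5.33-fold difference. This figure is not a lower bound, because it leaves out the spread between the Col6a1- libraries. Mast cells also make prostaglandin D2, through Hpgds, and their 9 markers summed to 9 to 38 in Col6a1+ and 227 to 707 in Col6a1- CAFs. Of these, 2 (Mcpt1 and Mcpt2) were called lower, and Cpa3, Mcpt1, Mcpt4 and Fcer1a were at 0 in every Col6a1+ library. Their part in the level of Ptgds was not tested.

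Of the 5 genes for inactivation and transport, Abcc4, an exporter that carries prostaglandin E2 out of cells, was called lower. It had 169, 181 and 178 normalized counts in Col6a1+ CAFs and 651, 330 and 413 in Col6a1- CAFs, or -1.34 as a log2 fold change (SE 0.33, limma adjusted p = 0.0467), with 0.126 under the replicate block, 0.0244 under the block over the better-covered genes and 0.0888 to 0.223 without any 1 library. The reductases Ptgr1 and Ptgr2, which act on the oxidized product of Hpgd, were also without overlap on the lower side. Ptgr1 had 40, 60 and 37 against 86, 67 and 112 (limma adjusted p = 0.331). Ptgr2 had 27, 66 and 47 against 113, 115 and 117 (limma adjusted p = 0.126).

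Arachidonate release was covered by 11 genes, of which 1 was called. Pla2g12a, a secreted phospholipase of the group XII type, had 22, 32 and 44 normalized counts in Col6a1+ CAFs and 220, 112 and 174 in Col6a1- CAFs, or -2.33 as a log2 fold change (SE 0.45, limma adjusted p = 0.0165), with 0.102 under the replicate block, 0.0143 under the block over the better-covered genes and 0.0741 to 0.169 without any 1 library. The secreted phospholipases Pla2g5 and Pla2g10 lay on the same side without overlap and did not pass.

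Pla2g5 had 1, 7 and 7 normalized counts against 30, 28 and 21 (limma adjusted p = 0.187), and Pla2g10 had 0, 54 and 27 against 104, 209 and 130 (limma adjusted p = 0.142, and 0.0381 with the replicate block over the better-covered genes). Pla2g4a, the cytosolic phospholipase that supplies arachidonic acid to the COX enzymes, went the other way with 44, 60 and 52 against 34, 21 and 19. Its log2 fold change was 1.08 (95% confidence interval -0.08 to 2.24, limma adjusted p = 0.348). Together with Ptgir it made 2 of the 27 further genes tested higher without overlap, and 7 of the 27 were lower without overlap. Of these 27, 20 are better-covered genes. Among all better-covered genes, 14.2% were higher and 17.6% lower without overlap. All 9 further genes without overlap but Ptgds are better-covered genes.

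The epithelial marker sum given above was larger in all 3 Col6a1- libraries, the side on which Abcc4, Pla2g12a, Ptgr1, Ptgr2 and Pla2g10 were higher, and its part in these differences was not tested. The plot of these genes and the marker sums gives both by library. Tuft cells, an epithelial type that expresses Ptgs1, were covered by 10 markers that summed to 176 to 273 in Col6a1+ and 464 to 945 in Col6a1- CAFs, with Trpm5, Pou2f3 and Il25 at 0 in all 6 libraries. Cd24a, the 1 marker called lower, made up most of the gap, and the other 9 summed to 168, 113 and 88 against 252, 134 and 140, with overlap. Dclk1 went the other way, with 134, 90 and 63 in Col6a1+ and 34, 62 and 25 in Col6a1- CAFs (limma adjusted p = 0.238).

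**Figure D3:**
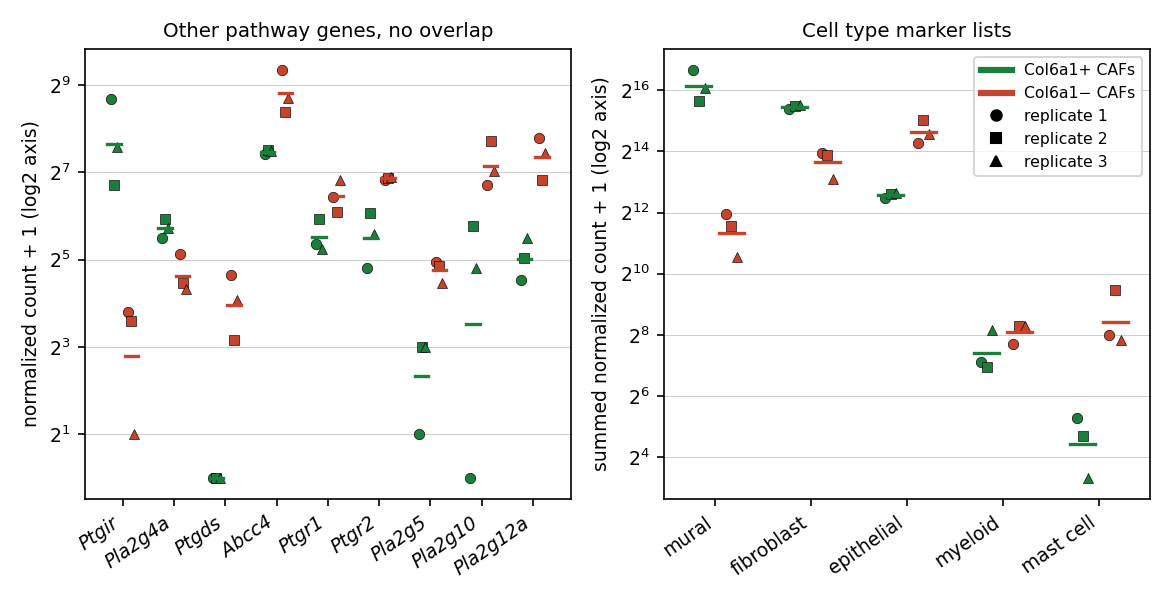
Left, normalized count plus 1 (log2 axis) of the 9 further pathway genes whose groups do not overlap, in each Col6a1+ (green) and Col6a1- (red) CAF library. Right, summed normalized count plus 1 (log2 axis) of 5 marker lists. Points are libraries, shapes are replicate numbers and lines are group means on the log2 scale. Mural and fibroblast marker sums are higher in all 3 Col6a1+ libraries, and epithelial and mast cell sums are higher in all 3 Col6a1- libraries.

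The genes whose levels across the 6 libraries lay closest to that of Ptgs2, among the 5533 genes that averaged 100 or more normalized counts, were Gm14328, Dennd5a, Inpp4b, Vim and Myom1, with Pearson r on the log2 scale of 0.994 to 0.997. This is a description over 6 libraries that fall into 2 groups, and any gene that differs evenly between the groups scores high. Vim, an intermediate filament gene of mesenchymal cells, had 3067, 3237 and 3508 normalized counts in Col6a1+ and 1984, 1437 and 1876 in Col6a1- CAFs, a smaller difference than that of Ptgs2 on the log2 scale (0.90 against 1.97). Of the other fibroblast markers, Pdgfrb (4.28), Col1a2 (2.50), Col1a1 (2.21) and Pdgfra (2.04) had larger log2 fold changes than Ptgs2. Those of Col3a1 (1.81), Dcn (0.91) and Lum (0.56) were smaller. These are point estimates, several of them close to that of Ptgs2, and differences between genes were not tested.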

How the data were processed

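The authors sequenced QuantSeq 3′ mRNA libraries of sorted CAFs on an Ion Proton, mapped reads to mm10 with TopHat2 and Bowtie2, counted them per gene and normalized with DESeq size factors through metaseqR. Whether counting used strand is not given in the sources used here, and 1 overlap between genes is not reported here. The deposited log2 values are the log2 of the normalized count plus 1, and 100% of them came within 0.001 of a whole normalized count when converted back. The authors' deposited p-values, false discovery rates, fold changes and group means, and 6 further per-sample columns, were left out.

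A 2-group linear model from limma 3.58.1 (R 4.3.3) with a mean-dependent variance prior (eBayes with trend) was fitted to the log2 values of the 26402 genes with a sum of at least 1 normalized count. Exact permutation tests used SciPy 1.17.1 and plots Matplotlib 3.10.9. The paired ratio tests and the marker sums without their most abundant gene were added after seeing the data. The fit was tested on simulated data. Replicates are pools, and p-values measure the spread between pools. The confidence intervals come from the same fit and rest on that same spread, estimated from 3 libraries per group. The limit for a level of 0 does not cover variation between libraries.

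Deviations from the group means, over 13515 genes with a mean of at least 10, correlated at 0.245, 0.125 and 0.144 between libraries with the same replicate number and at -0.245 to 0.15 otherwise. The 0.15, between Col6a1+ replicate 2 and Col6a1- replicate 3, is above the same-numbered 0.125 and 0.144, so these correlations do not settle whether the numbers pair the libraries. The labels do not say it either. The paper's legend speaks of 3 sequenced samples in total, each from a pool of tumors, against 6 libraries here. That count would allow both groups to have been sorted from each pool, but the paper does not say which libraries shared a pool. The main test leaves the numbers out, and the fit that pairs by them is an alternative. Blocked values are given where a call changed, and for the markers as a range.

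The 10 genes and all lists were chosen with earlier results of these data known. All 10 are named, as are the further pathway genes that were called or had no overlap, and the 5 genes most like Ptgs2. Alternatives were library size alone, limma-voom, a pseudocount of 0.1, filters at a mean or a minimum of 10, the replicate block with and without that mean, leaving out each library, and a rule without adjustment (p under 0.05, log2 fold change beyond 1 in either direction).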

Additional observations from a re-analysis of the deposited data

How the results depend on the processing

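With the replicate number as a block, limma called 0 of all genes (1851 higher and 2567 lower at an unadjusted p under 0.05), 0 of the 10 genes and 0 of the further pathway genes. With the block over genes with a mean of at least 10, it called 1852 genes and 2 of the 10, Ptgs2 and Ptges. Ptges was also called, which made 2 of the 10, with limma-voom, with either filter at 10 (the mean, or every library) and under the rule without adjustment. That rule took in 3880 genes against 1220, and 7 further pathway genes against 4, while the filter on every library left 2 of these. Leaving out 1 library at a time, limma called 0 to 264 genes, 0 to 1 of the 10 and 0 to 0 of the further genes. All calls were lost without any 1 Col6a1+ library or Col6a1- replicate 1, and 264 and 188 genes were called without Col6a1- replicates 2 and 3. Abcc4 also lost its call with a pseudocount of 0.1 (adjusted p = 0.0618). The log2 fold change of Ptger1 turned to -0.19 without Col6a1- replicate 3, in a range of -0.19 to 1.06 over the left-out libraries, and that of Tbxas1 to -0.08 without Col6a1+ replicate 2, in a range of -0.08 to 0.37. The other 8 of the 10 genes kept their direction under every alternative that gave them a value, with Ptgs2 at 1.75 to 2.13 and Hpgd at -3.44 to -0.70. The block and each left-out library also leave fewer residual degrees of freedom. Genes under the filters had no value there. Levels of a few counts, as for Ptgis and Ptger3, limit what could be detected.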
